A study of Mus musculus with 12 samples.

Results

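Genes that remove superoxide, peroxides and reactive electrophiles were followed in 3T3-L1, an established murine line that grows as fibroblast-like preadipocytes and turns into adipocytes under adipogenic hormones. Members were taken by symbol: the glutathione S-transferases (Gst), glutathione peroxidases (Gpx), peroxiredoxins (Prdx), superoxide dismutases (Sod) and thioredoxins with their relatives (Txn), and the single genes Cat, Nqo1, Hmox1, Gclc, Gclm, Gsr, Srxn1, Nfe2l2 and Keap1. The rule found 63 of the 18255 genes listed in the tables, namely 22 Gst, 6 Gpx, 6 Prdx, 3 Sod and 17 Txn genes beside the 9 single genes. A symbol is no proof of function: Txnl4a and Txnl4b encode splicing proteins, Txnip is an arrestin-like binding partner of thioredoxin, and several Txndc genes encode protein-folding enzymes of the endoplasmic reticulum.

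Superoxide dismutases turn superoxide into hydrogen peroxide, Sod1 in the cytosol, Sod2 in mitochondria and Sod3 outside the cell. Catalase (Cat) breaks hydrogen peroxide down in peroxisomes, glutathione peroxidases reduce peroxides with glutathione, and peroxiredoxins do so with electrons that thioredoxin reductases take from NADPH. Glutathione is made in a first step by the ligase of Gclc and Gclm, is returned to its reduced form by Gsr and is joined to electrophiles by glutathione S-transferases. The factor NRF2 (Nfe2l2), which Keap1 marks for degradation, drives many of these genes through antioxidant response elements. Fat cells carry many mitochondria and peroxisomes, both of which make hydrogen peroxide while oxidising lipid.

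The series holds 12 RNA libraries, 3 for each of 4 groups. A control line (NC) and a line that overexpresses LIGHT, the TNF-related cytokine whose gene is Tnfsf14, were each taken undifferentiated and after beige differentiation. Undifferentiated cells grew in DMEM/high glucose with serum and antibiotics. Differentiated cells were given dexamethasone at 2 µg/ml, IBMX at 0.5 mM, rosiglitazone at 1 µM, triiodothyronine at 1 nM, insulin at 5 µg/ml and indomethacin for 48 h, and then rosiglitazone, triiodothyronine and insulin at the same doses. The labels do not state the vector and promoter behind LIGHT, whether a line is 1 clone, and when cells were harvested: these were not given in the sources used here. Labels name replicates and do not say that they were separate cultures, so the p-values measure the spread between these libraries, which may be technical.

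Library totals ran from 16334079 to 19686675 expected counts, at which 3 counts are worth 0.152 to 0.184 CPM, counts scaled to library size. Tnfsf14 had 38 to 58 counts in the undifferentiated LIGHT libraries and 0 or 1 in their controls. After differentiation it had 113 counts in the library labelled control 1 and 0 in the library labelled LIGHT 1, against 0 in control 2 and 3 and 148 and 122 in LIGHT 2 and 3. Over the 53 members tested, the mean absolute log2 difference of differentiated control 1 was 0.297 from control 2 and 3 and 0.109 from LIGHT 2 and 3. For differentiated LIGHT 1 it was 0.243 from LIGHT 2 and 3 and 0.0946 from control 2 and 3. Replicates 2 and 3 differed by 0.103 in the control and 0.0998 in the LIGHT line. Results are therefore given with all 12 libraries as labelled and again without these 2 libraries, and the first value of each differentiated group below is theirs. The summed level of 8 adipocyte markers was 187 to 241 CPM before and 15614 to 21320 CPM after differentiation. Of 7 beige markers, 5 or 6 had at most 3 counts in every library of a group, and Ucp1 had 0 to 2 counts. The beige marker Ppargc1a rose, from 28 to 40 counts in undifferentiated control and 15 to 24 in undifferentiated LIGHT libraries. After differentiation it had 108 to 184 counts in control and 125 to 224 in LIGHT libraries. The 7 beige markers summed to at most 2.74 CPM before and to 6.37 to 12.03 CPM after differentiation. Markers of leukocytes summed to 1.94 to 4.603 CPM, those of endothelial or epithelial cells to 0.698 to 11.6 CPM, those of muscle to 7.03 to 29.5 CPM and those of hepatocytes to 0 to 0.972 CPM.

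Per unit of length, the most abundant members were Sod1, with a mean of 759 FPKM (fragments scaled to gene length and library size) over the 12 libraries, Gpx4 with 748, Gstp1 with 694, Prdx1 with 385 and Prdx2 with 348 FPKM. Sod1 and Gpx4 ranked 145 and 146 among all genes listed. Txn1, the cytosolic thioredoxin, led its family with 236 FPKM, and Hmox1, which opens the haem ring, led the single genes with 234 FPKM. The 63 members summed to 5489 to 6172 FPKM in the undifferentiated and 6655 to 7085 FPKM in the differentiated libraries, and these ranges did not overlap. The Sod family made the largest step, from 559 to 685 FPKM before to 1096 to 1377 FPKM after differentiation. Thioredoxin family sums stayed between 1034 and 1122 FPKM in the 12 libraries, while their members moved in both directions. Close copies can share reads, so the levels of Gstp1 and Gstp2, of Gsta1 and Gsta2 and of the Gstm genes are uncertain between copies.

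**Figure D1:**
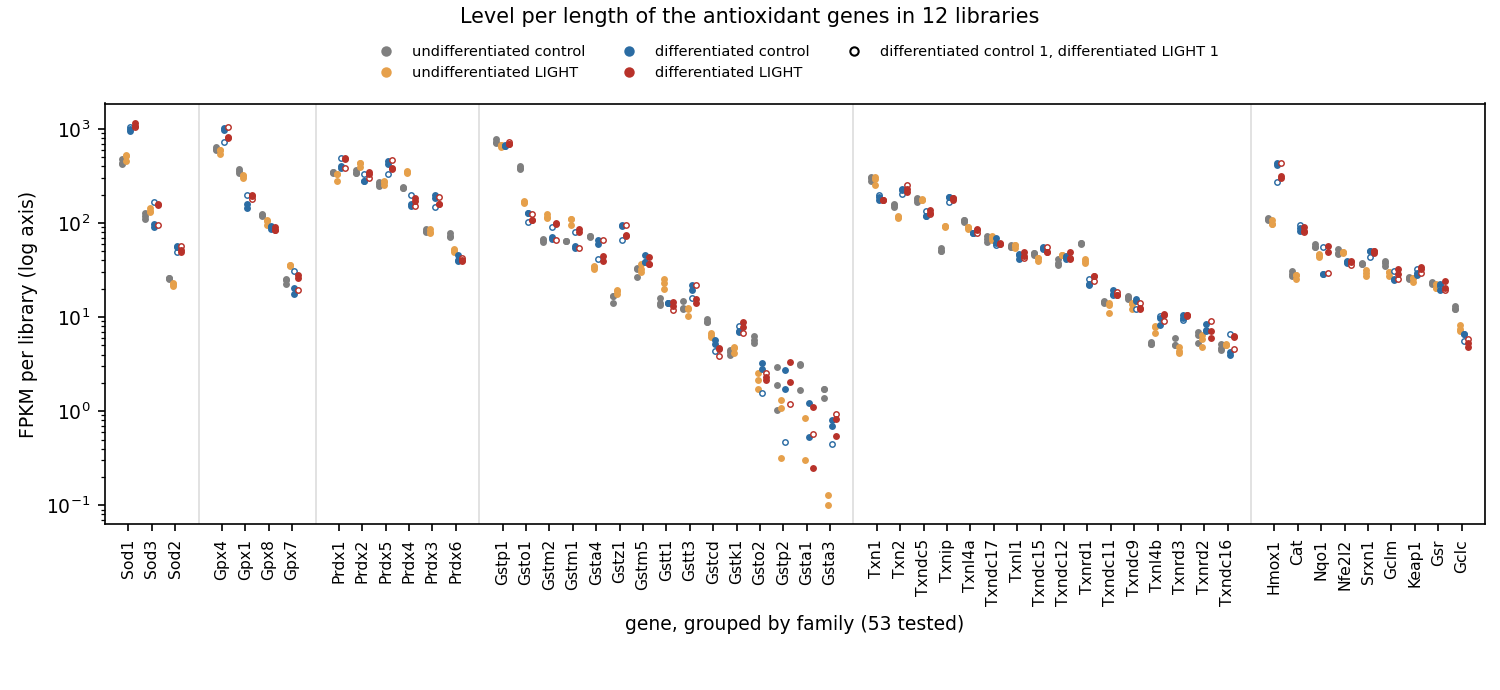
FPKM of the 53 tested members in each of the 12 libraries on a log axis, ordered within families by mean level; colours mark the 4 groups and open points mark differentiated control 1 and differentiated LIGHT 1. Values of 0 are not drawn, and Sod1 and Gpx4 lie highest, with means of 759 and 748 FPKM.

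The first question was how these genes differ between preadipocytes and differentiated cells of each line. Cat, Hmox1, Gstz1, Txnip, Sod1, Sod2 and Prdx3 rose at least 2-fold in both lines, led by Gstz1 at log2 fold changes of 2.59 and 2.20. Gpx1, Gsto1, Txnrd1, Txn1, Prdx6 and Gclc fell in both. Of the 53 members tested, 22 rose and 16 fell in the control line, 71.7% in all, where 63.9% of all genes tested were called, 32.2% higher and 31.7% lower. In the LIGHT line 22 rose and 17 fell, 73.6% against 58.6% of all genes, 29.5% higher and 29.1% lower. Without the 2 libraries, 23 rose and 18 fell of 55 in the control line (70.7% of all genes called, 35.8% higher and 34.9% lower). In the LIGHT line 27 then rose and 19 fell (64.1% of all genes, 32.3% higher and 31.9% lower). The libraries of the stages did not overlap for 40 of 53 members in either line with all libraries (67.7% of all genes in the control and 66.6% in the LIGHT line). Without the 2 libraries this held for 45 of 55 members in the control and 46 of 55 in the LIGHT line (78.7% and 75.8% of all genes). The median log2 fold change of the members was 0.08 in the control and 0.17 in the LIGHT line, against 0.00 over all genes tested in both. With all libraries 20 of 53 members rose and 12 fell in both lines, as did 24.6% and 23.4% of all genes. Without the 2 libraries the counts were 20 and 13 of 55, beside 26.3% and 25.3% of all genes. Both lines' adipocyte marker sums rose at the same time, and in bulk RNA fewer cells of a type cannot be told apart from less RNA per cell. Scaling by library totals moved the median of all genes to -0.11 in the control line and -0.08 in the LIGHT line, relative to which members are then read; 19 members then rose and 18 fell in the control line, and 42.2% of all genes' calls were rises instead of 50.4%.

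**Figure D2:**
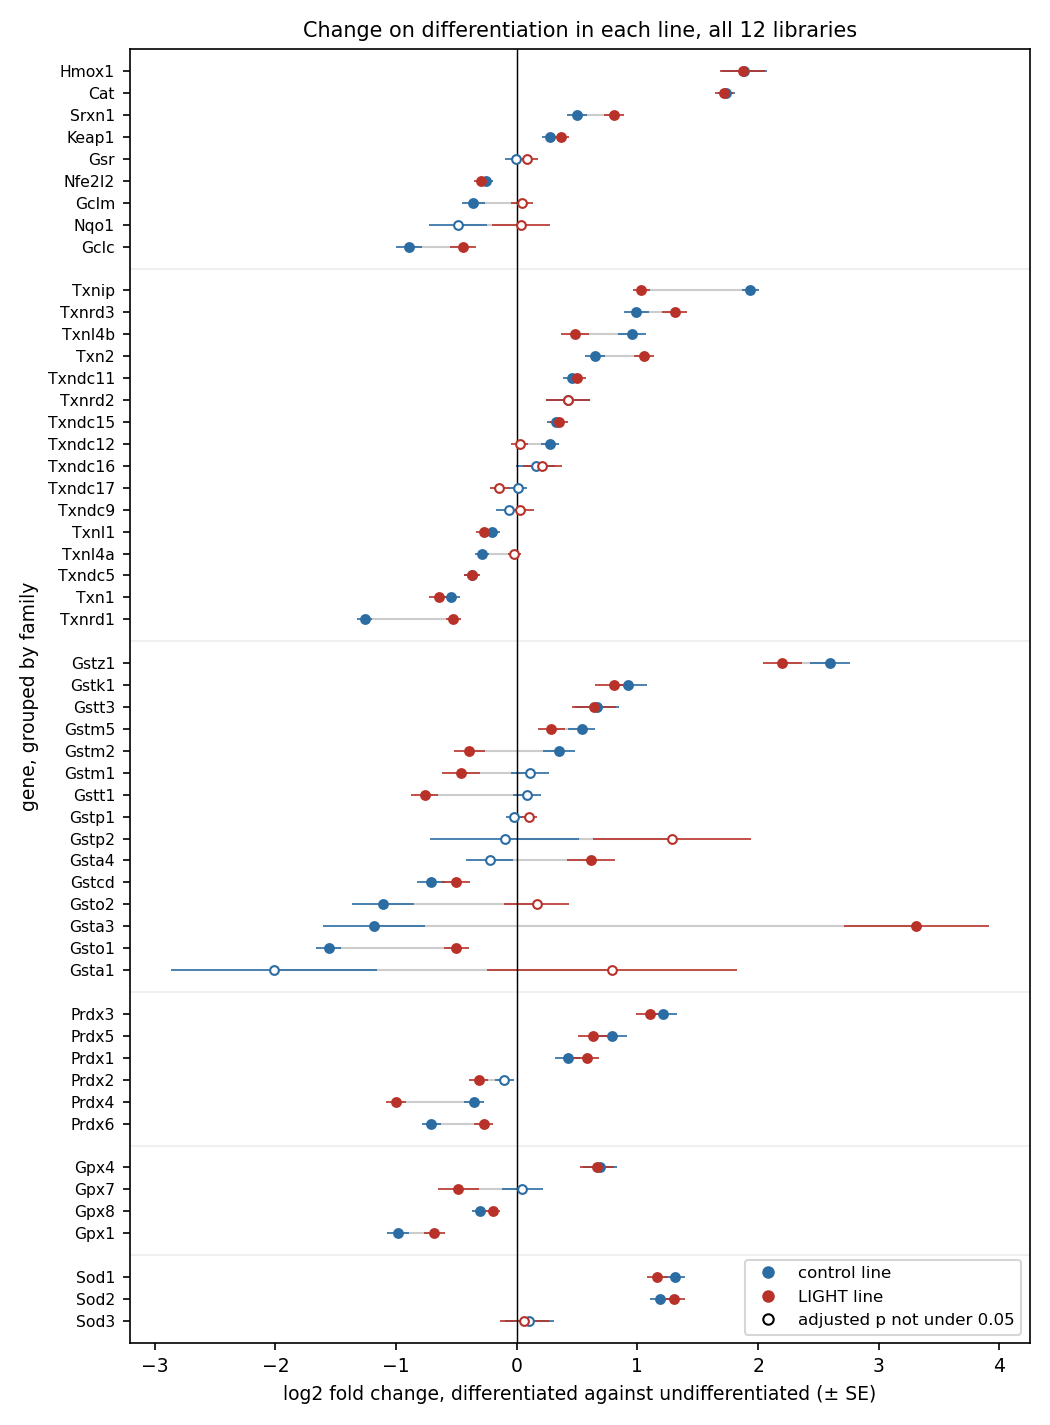
Log2 fold change on differentiation (edgeR, all 12 libraries, bars ± SE) of the 53 tested members in the control line (blue) and the LIGHT line (red); filled points had an adjusted p under 0.05. Gstz1, Hmox1 and Cat lie far to the right in both lines, and Gsta3 and Gstm2 have filled points on opposite sides of 0.

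Both intracellular superoxide dismutases and catalase rose. Before differentiation, Sod1 measured 206, 203 and 232 CPM in the control libraries and 262, 261 and 225 CPM in the LIGHT libraries. After differentiation, Sod1 measured 552, 488 and 548 CPM in the control and 545, 579 and 547 CPM in the LIGHT libraries. Each differentiated library lay above each undifferentiated one. For Sod1 the log2 fold change on differentiation was 1.31 ± 0.084 (SE) in the control line and 1.16 ± 0.083 (SE) in the LIGHT line (edgeR adjusted p = 3.61e-08 and 1.41e-07), and 1.30 and 1.18 without the 2 libraries. Before differentiation, Sod2 measured 90.9, 88.2 and 93.0 CPM in the control libraries and 81.0, 82.6 and 75.7 CPM in the LIGHT libraries. After differentiation, Sod2 measured 185, 213 and 222 CPM in the control and 222, 188 and 182 CPM in the LIGHT libraries. The mitochondrial enzyme's groups likewise did not overlap between stages. For Sod2 the log2 fold change on differentiation was 1.19 ± 0.087 (SE) in the control line and 1.31 ± 0.088 (SE) in the LIGHT line (edgeR adjusted p = 1.25e-07 and 7.69e-08), and 1.29 and 1.22 without the 2 libraries. Before differentiation, Cat measured 63.2, 70.5 and 67.2 CPM in the control libraries and 65.5, 64.9 and 59.2 CPM in the LIGHT libraries. After differentiation, Cat measured 234, 223 and 211 CPM in the control and 204, 199 and 221 CPM in the LIGHT libraries. Catalase was low in the 6 undifferentiated and high in the 6 differentiated libraries, and the lines overlapped at both stages. For Cat the log2 fold change on differentiation was 1.74 ± 0.071 (SE) in the control line and 1.72 ± 0.071 (SE) in the LIGHT line (edgeR adjusted p = 7.43e-10 and 1.04e-09), and 1.72 and 1.74 without the 2 libraries. Sod3, the extracellular form, had log2 fold changes of 0.10 and 0.06 that did not pass with all libraries (edgeR adjusted p = 0.677 and 0.808). In the fit of the 10 libraries without differentiated control 1 and differentiated LIGHT 1 they were -0.17 in the control line, where the direction turned, and 0.25 in the LIGHT line (edgeR adjusted p = 0.0200 and 0.00148). Of these the control call ended without undifferentiated control 3 or differentiated control 3 (edgeR adjusted p from 0.100 to 0.126).

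The glutathione peroxidases split. Before differentiation, Gpx4 measured 464, 483 and 503 CPM in the control libraries and 494, 474 and 429.9 CPM in the LIGHT libraries. After differentiation, Gpx4 measured 615, 860.4 and 863 CPM in the control and 892, 662 and 662 CPM in the LIGHT libraries. Gpx4, which reduces lipid hydroperoxides within membranes, was higher in each differentiated library than in any undifferentiated one. For Gpx4 the log2 fold change on differentiation was 0.69 ± 0.14 (SE) in the control line and 0.66 ± 0.14 (SE) in the LIGHT line (edgeR adjusted p = 8.35e-04 and 0.00126), and 0.86 and 0.51 without the 2 libraries. Before differentiation, Gpx1 measured 295, 314 and 333 CPM in the control libraries and 291, 283 and 267 CPM in the LIGHT libraries. After differentiation, Gpx1 measured 183, 151 and 142 CPM in the control and 170.1, 173 and 180.4 CPM in the LIGHT libraries. Gpx1, the abundant cytosolic peroxidase, went the other way, with no overlap between stages. For Gpx1 the log2 fold change on differentiation was -0.99 ± 0.089 (SE) in the control line and -0.68 ± 0.089 (SE) in the LIGHT line (edgeR adjusted p = 8.71e-07 and 2.74e-05), and -1.08 and -0.66 without the 2 libraries. Gpx8, an enzyme of the endoplasmic reticulum, fell in both lines, by log2 fold changes of -0.31 and -0.20 (edgeR adjusted p = 7.71e-04 and 0.0150). Its call in the LIGHT line ended without undifferentiated LIGHT 1, undifferentiated LIGHT 2 or differentiated LIGHT 3 (edgeR adjusted p up to 0.0738). Gpx7 fell in LIGHT cells only. The Gpx7 call ended without undifferentiated LIGHT 1, 2 or 3 or differentiated LIGHT 1 (edgeR adjusted p from 0.0556 to 0.0881).

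Among peroxiredoxins the mitochondrial Prdx3 and Prdx5 and the cytosolic Prdx1 rose in both lines, and Prdx4 and Prdx6 fell in both. Prdx2 fell in LIGHT cells only with all libraries, and in both lines without the 2 libraries. That call in control cells ended with the replicate number as a block or without undifferentiated control 3 (edgeR adjusted p from 0.0617 to 0.0886). Before differentiation, Prdx3 measured 100.5, 106 and 101 CPM in the control libraries and 104, 108 and 98.6 CPM in the LIGHT libraries. After differentiation, Prdx3 measured 197, 265 and 254 CPM in the control and 254, 206 and 205 CPM in the LIGHT libraries. The stages did not overlap. For Prdx3 the log2 fold change on differentiation was 1.22 ± 0.11 (SE) in the control line and 1.101 ± 0.11 (SE) in the LIGHT line (edgeR adjusted p = 9.30e-07 and 2.89e-06), and 1.36 and 0.998 without the 2 libraries. Before differentiation, Prdx1 measured 419, 422 and 414 CPM in the control libraries and 414, 412 and 338 CPM in the LIGHT libraries. After differentiation, Prdx1 measured 635, 532 and 514 CPM in the control and 512, 607 and 619.6 CPM in the LIGHT libraries. Prdx1 was higher in the differentiated libraries of each line. For Prdx1 the log2 fold change on differentiation was 0.42 ± 0.10 (SE) in the control line and 0.58 ± 0.11 (SE) in the LIGHT line (edgeR adjusted p = 0.00358 and 4.30e-04), and 0.35 and 0.67 without the 2 libraries. Before differentiation, Prdx4 measured 192, 191 and 191 CPM in the control libraries and 294, 294 and 277 CPM in the LIGHT libraries. After differentiation, Prdx4 measured 171, 139.6 and 138 CPM in the control and 133, 153 and 147 CPM in the LIGHT libraries. Prdx4, the peroxiredoxin of the endoplasmic reticulum, was highest in undifferentiated LIGHT libraries. For Prdx4 the log2 fold change on differentiation was -0.36 ± 0.083 (SE) in the control line and -0.998 ± 0.083 (SE) in the LIGHT line (edgeR adjusted p = 0.00223 and 5.44e-07), and -0.44 and -0.94 without the 2 libraries. Before differentiation, Prdx6 measured 151, 154 and 171 CPM in the control libraries and 113, 116 and 105 CPM in the LIGHT libraries. After differentiation, Prdx6 measured 91.3, 106 and 94.6 CPM in the control and 99.003, 87.7 and 89.7 CPM in the LIGHT libraries. Prdx6, which also acts on phospholipids, was highest in undifferentiated control libraries. For Prdx6 the log2 fold change on differentiation was -0.71 ± 0.077 (SE) in the control line and -0.27 ± 0.077 (SE) in the LIGHT line (edgeR adjusted p = 4.68e-06 and 0.00848), and -0.64 and -0.32 without the 2 libraries. Prdx5 had log2 fold changes of 0.79 and 0.63 (edgeR adjusted p = 1.20e-04 and 8.42e-04).

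Sulfiredoxin (Srxn1), which repairs over-oxidised peroxiredoxins, rose as well. Before differentiation, Srxn1 measured 92.9, 96.4 and 95.9 CPM in the control libraries and 72.7, 76.8 and 81.6 CPM in the LIGHT libraries. After differentiation, Srxn1 measured 117, 142 and 144 CPM in the control and 142, 128 and 135 CPM in the LIGHT libraries. Each line's stages were separate. For Srxn1 the log2 fold change on differentiation was 0.50 ± 0.081 (SE) in the control line and 0.81 ± 0.081 (SE) in the LIGHT line (edgeR adjusted p = 1.45e-04 and 3.00e-06), and 0.61 and 0.77 without the 2 libraries.

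In the thioredoxin system the cytosolic thioredoxin Txn1 and its reductase Txnrd1 fell, and the mitochondrial thioredoxin Txn2 rose. Before differentiation, Txn1 measured 239.7, 259 and 266 CPM in the control libraries and 274, 255 and 223 CPM in the LIGHT libraries. After differentiation, Txn1 measured 180.3, 174 and 170.0 CPM in the control and 163, 158 and 160.0 CPM in the LIGHT libraries. The 6 differentiated libraries lay below the 6 undifferentiated ones. For Txn1 the log2 fold change on differentiation was -0.54 ± 0.075 (SE) in the control line and -0.65 ± 0.075 (SE) in the LIGHT line (edgeR adjusted p = 3.86e-05 and 1.06e-05), and -0.54 and -0.65 without the 2 libraries. Before differentiation, Txnrd1 measured 194, 189 and 189.7 CPM in the control libraries and 126, 120.0 and 131 CPM in the LIGHT libraries. After differentiation, Txnrd1 measured 84.3, 77.6 and 77.1 CPM in the control and 82.7, 88.6 and 90.3 CPM in the LIGHT libraries. Txnrd1 was highest in undifferentiated controls, and the differentiated lines overlapped. For Txnrd1 the log2 fold change on differentiation was -1.26 ± 0.061 (SE) in the control line and -0.53 ± 0.061 (SE) in the LIGHT line (edgeR adjusted p = 3.05e-09 and 9.79e-06), and -1.28 and -0.49 without the 2 libraries. Txn2 had log2 fold changes of 0.65 ± 0.084 (SE) in the control and 1.05 ± 0.085 (SE) in the LIGHT line (edgeR adjusted p = 2.25e-05 and 3.92e-07), and 0.74 and 0.97 without the 2 libraries. Before differentiation, Txnrd3 measured 12.9, 13.1 and 15.7 CPM in the control libraries and 12.6, 11.5 and 10.6 CPM in the LIGHT libraries. After differentiation, Txnrd3 measured 25.4, 29.4 and 28.0 CPM in the control and 30.2, 28.0 and 27.8 CPM in the LIGHT libraries. This reductase, best known from testis, was higher after differentiation in each line. For Txnrd3 the log2 fold change on differentiation was 0.99 ± 0.10 (SE) in the control line and 1.31 ± 0.10 (SE) in the LIGHT line (edgeR adjusted p = 3.21e-06 and 3.57e-07), and 1.07 and 1.28 without the 2 libraries. Before differentiation, Txnip measured 127, 136 and 130.2 CPM in the control libraries and 242, 235 and 238 CPM in the LIGHT libraries. After differentiation, Txnip measured 455, 522 and 529 CPM in the control and 515, 462 and 485 CPM in the LIGHT libraries. Txnip, which binds thioredoxin and limits glucose uptake, was high in both differentiated groups and lowest in undifferentiated controls. For Txnip the log2 fold change on differentiation was 1.94 ± 0.074 (SE) in the control line and 1.03 ± 0.072 (SE) in the LIGHT line (edgeR adjusted p = 3.81e-10 and 1.07e-07), and 2.03 and 0.996 without the 2 libraries. Of the other thioredoxin relatives, Txnl4b, Txndc11 and Txndc15 rose in both lines and Txndc5 and Txnl1 fell in both, by log2 fold changes between -0.37 for Txndc5 and 0.95 for Txnl4b in control cells. The Txnl1 call in control cells ended without undifferentiated control 2 or differentiated control 3 (edgeR adjusted p from 0.0556 to 0.0821).

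The glutathione S-transferases held both the largest rise and the largest called fall in the control line. Before differentiation, Gstz1 measured 24.1, 20.4 and 24.6 CPM in the control libraries and 28.4, 29.1 and 26.1 CPM in the LIGHT libraries. After differentiation, Gstz1 measured 105, 150.3 and 162 CPM in the control and 156, 112 and 117 CPM in the LIGHT libraries. Gstz1, the maleylacetoacetate isomerase of tyrosine breakdown, was several-fold higher in each differentiated library. For Gstz1 the log2 fold change on differentiation was 2.59 ± 0.17 (SE) in the control line and 2.20 ± 0.16 (SE) in the LIGHT line (edgeR adjusted p = 3.98e-08 and 1.99e-07), and 2.78 and 2.04 without the 2 libraries. Before differentiation, Gsto1 measured 367, 380.4 and 407 CPM in the control libraries and 172, 173 and 165 CPM in the LIGHT libraries. After differentiation, Gsto1 measured 110.0, 139 and 143 CPM in the control and 137, 112 and 113 CPM in the LIGHT libraries. Gsto1, an omega-class thioltransferase, was highest in undifferentiated controls and lowest in the differentiated groups. For Gsto1 the log2 fold change on differentiation was -1.56 ± 0.10 (SE) in the control line and -0.50 ± 0.10 (SE) in the LIGHT line (edgeR adjusted p = 5.55e-08 and 0.00111), and -1.43 and -0.60 without the 2 libraries. Before differentiation, Gsto2 measured 7.15, 6.403 and 6.70 CPM in the control libraries and 2.48, 2.98 and 1.93 CPM in the LIGHT libraries. After differentiation, Gsto2 measured 1.86, 3.39 and 4.10 CPM in the control and 3.12, 2.64 and 2.56 CPM in the LIGHT libraries. Its neighbour Gsto2 lay far lower, with undifferentiated controls again highest. For Gsto2 the log2 fold change on differentiation was -1.11 ± 0.26 (SE) in the control line and 0.17 ± 0.27 (SE) in the LIGHT line (edgeR adjusted p = 0.00224 and 0.618), and -0.82 and 0.08 without the 2 libraries. Before differentiation, Gstcd measured 21.2, 21.0 and 22.8 CPM in the control libraries and 15.1, 16.4 and 15.5 CPM in the LIGHT libraries. After differentiation, Gstcd measured 11.1, 15.0 and 13.7 CPM in the control and 10.1, 11.6 and 11.5 CPM in the LIGHT libraries. Gstcd, which shares a transferase domain, fell in both lines. For Gstcd the log2 fold change on differentiation was -0.71 ± 0.11 (SE) in the control line and -0.50 ± 0.12 (SE) in the LIGHT line (edgeR adjusted p = 1.28e-04 and 0.00237), and -0.58 and -0.43 without the 2 libraries. Gstk1, Gstt3 and Gstm5 rose in both lines, by log2 fold changes of 0.92, 0.66 and 0.54 in control cells and 0.80, 0.64 and 0.29 in LIGHT cells. The Gstm5 call in LIGHT cells ended without undifferentiated control 3, undifferentiated LIGHT 1, undifferentiated LIGHT 3 or differentiated LIGHT 2 (edgeR adjusted p from 0.0537 to 0.165), and with library totals (0.21, edgeR adjusted p = 0.124). In LIGHT cells Gstt1 (-0.76) and Gstm1 (-0.46) also fell and Gsta4 (0.61) rose (edgeR adjusted p = 9.55e-05, 0.0222 and 0.0191), of which the interaction was called for Gstt1 with all libraries. The Gstm1 call ended without undifferentiated LIGHT 1, undifferentiated LIGHT 2 or differentiated LIGHT 1 (edgeR adjusted p from 0.0673 to 0.0709). The Gsta4 call ended without undifferentiated LIGHT 2 or differentiated LIGHT 1 (edgeR adjusted p from 0.0594 to 0.0975).

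Gstp1, the most abundant transferase, did not pass in any contrast in either fit. Before differentiation, Gstp1 measured 390.0, 401 and 436 CPM in the control libraries and 397, 383 and 367 CPM in the LIGHT libraries. After differentiation, Gstp1 measured 393, 403 and 415 CPM in the control and 436, 392 and 406 CPM in the LIGHT libraries. The 4 groups overlapped. For Gstp1 the log2 fold changes on differentiation were -0.02 ± 0.067 (SE) and 0.10 ± 0.067. Without the 2 libraries and with scaling by library totals its change in control cells was -0.13 (edgeR adjusted p = 0.0303).

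Stage moved 2 members in opposite directions in the lines with all libraries, Gsta3 and Gstm2, as it did 0.654% of all genes. Before differentiation, Gstm2 measured 62.3, 60.7 and 59.2 CPM in the control libraries and 109.7, 117 and 109 CPM in the LIGHT libraries. After differentiation, Gstm2 measured 90.5, 71.0 and 70.6 CPM in the control and 65.9, 95.4 and 93.9 CPM in the LIGHT libraries. Control cells gained and LIGHT cells lost Gstm2, from different starting levels. For Gstm2 the log2 fold change on differentiation was 0.35 ± 0.13 (SE) in the control line and -0.39 ± 0.13 (SE) in the LIGHT line (edgeR adjusted p = 0.0330 and 0.0192), and 0.24 and -0.23 without the 2 libraries. The control call ended without undifferentiated control 1, undifferentiated control 2, undifferentiated control 3 or differentiated control 1 (edgeR adjusted p from 0.0614 to 0.0929), and with library totals (0.24, edgeR adjusted p = 0.176). The LIGHT call ended without undifferentiated LIGHT 2 or differentiated LIGHT 1 (edgeR adjusted p from 0.0510 to 0.0610). Gsta3 was counted at 35, 29 and 36 expected counts in undifferentiated control, 2, 3 and 0 in undifferentiated LIGHT, 9, 17 and 17 in differentiated control and 20, 19 and 11 in differentiated LIGHT libraries. The undifferentiated LIGHT group stood apart at a few counts. For Gsta3 the log2 fold change on differentiation was -1.19 ± 0.42 (SE) in the control line and 3.31 ± 0.60 (SE) in the LIGHT line (edgeR adjusted p = 0.0263 and 4.24e-04), and -0.95 and 3.11 without the 2 libraries. The fall in control cells ended without undifferentiated control 1, undifferentiated control 3, differentiated control 1 or differentiated control 3 (edgeR adjusted p from 0.0566 to 0.0856), and also without both of the 2 libraries (edgeR adjusted p = 0.0648). In the fit of 10 libraries opposite calls were found for Gstm2, Nqo1 and Sod3, and for 2.21% of all genes. The Sod3 call in control cells then ended without undifferentiated control 3 or differentiated control 3. The Gstm2 call in control cells then ended with library totals (0.09, edgeR adjusted p = 0.188).

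Of the ligase subunits, Gclc fell in both lines and Gclm in control cells. Before differentiation, Gclc measured 38.7, 41.3 and 38.7 CPM in the control libraries and 23.9, 23.0 and 26.3 CPM in the LIGHT libraries. After differentiation, Gclc measured 18.5, 22.6 and 22.9 CPM in the control and 20.4, 15.9 and 17.5 CPM in the LIGHT libraries. Gclc, the catalytic subunit of the first ligase, was highest in undifferentiated controls. For Gclc the log2 fold change on differentiation was -0.89 ± 0.11 (SE) in the control line and -0.45 ± 0.11 (SE) in the LIGHT line (edgeR adjusted p = 1.16e-05 and 0.00357), and -0.77 and -0.54 without the 2 libraries. Before differentiation, Gclm measured 60.8, 66.6 and 70.8 CPM in the control libraries and 49.5, 54.4 and 53.4 CPM in the LIGHT libraries. After differentiation, Gclm measured 57.3, 48.9 and 48.4 CPM in the control and 49.5, 52.99 and 59.8 CPM in the LIGHT libraries. For the modifier subunit Gclm the LIGHT groups overlapped between stages. For Gclm the log2 fold change on differentiation was -0.36 ± 0.092 (SE) in the control line and 0.04 ± 0.093 (SE) in the LIGHT line (edgeR adjusted p = 0.00440 and 0.705), and -0.42 and 0.11 without the 2 libraries. Before differentiation, Gsr measured 55.4, 54.8 and 57.7 CPM in the control libraries and 55.8, 50.7 and 49.4 CPM in the LIGHT libraries. After differentiation, Gsr measured 55.5, 51.0 and 60.3 CPM in the control and 51.7, 51.8 and 62.0 CPM in the LIGHT libraries. The 4 groups overlapped for glutathione reductase, which passed in no contrast of either fit. For Gsr the log2 fold change on differentiation was -0.01 ± 0.088 (SE) in the control line and 0.09 ± 0.088 (SE) in the LIGHT line (edgeR adjusted p = 0.936 and 0.417), and 0.02 and 0.13 without the 2 libraries.

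The regulator Nfe2l2 fell and its partner Keap1 rose, both by small amounts. Before differentiation, Nfe2l2 measured 107, 119 and 107 CPM in the control libraries and 112, 112 and 107 CPM in the LIGHT libraries. After differentiation, Nfe2l2 measured 91.6, 94.6 and 92.3 CPM in the control and 86.7, 92.6 and 90.6 CPM in the LIGHT libraries. Nfe2l2 was somewhat lower in the differentiated libraries of both lines. For Nfe2l2 the log2 fold change on differentiation was -0.26 ± 0.060 (SE) in the control line and -0.29 ± 0.060 (SE) in the LIGHT line (edgeR adjusted p = 0.00223 and 0.00102), and -0.23 and -0.26 without the 2 libraries. Before differentiation, Keap1 measured 79.1, 78.0 and 83.4 CPM in the control libraries and 81.8, 80.5 and 73.3 CPM in the LIGHT libraries. After differentiation, Keap1 measured 102, 96.4 and 92.3 CPM in the control and 97.3, 101 and 106 CPM in the LIGHT libraries. Keap1 was somewhat higher after differentiation. For Keap1 the log2 fold change on differentiation was 0.28 ± 0.066 (SE) in the control line and 0.37 ± 0.066 (SE) in the LIGHT line (edgeR adjusted p = 0.00275 and 3.83e-04), and 0.26 and 0.40 without the 2 libraries. With library totals the Keap1 change in control cells was 0.16 (edgeR adjusted p = 0.0687), and 0.10 without the 2 libraries (edgeR adjusted p = 0.132). Before differentiation, Hmox1 measured 153, 155 and 162 CPM in the control libraries and 141, 156 and 139 CPM in the LIGHT libraries. After differentiation, Hmox1 measured 408, 666 and 661 CPM in the control and 677, 448 and 472 CPM in the LIGHT libraries. Haem oxygenase 1 rose in each line, and differentiated control 1 and LIGHT 1 lay beside the other line's libraries. For Hmox1 the log2 fold change on differentiation was 1.89 ± 0.19 (SE) in the control line and 1.87 ± 0.19 (SE) in the LIGHT line (edgeR adjusted p = 1.90e-06 and 2.60e-06), and 2.11 and 1.67 without the 2 libraries. Hmox1 thus rose, and Nqo1, another gene that NRF2 is known to drive, did not pass in either line with all libraries.

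RefSeq promoter windows (250 bases before to 50 after a start, GRCm38.p6) matched 54 of the 63 members by symbol or gene ID. The antioxidant response element core TGACNNNGC, searched on both strands, was present in windows of 12 of these 54 genes (22.2%), against 14.0% of all 27025 genes of the table and 16.8% of the tested genes that matched. The related AP-1 motif TGACTCA, which can overlap it, was present for 5 (9.26%), against 5.95% of all genes. The 12 were Gclm, Gsta3, Gstm5, Gstm7, Nfe2l2, Prdx1, Sod1, Srxn1, Txndc11, Txndc2, Txndc5 and Txnrd1. They did not share a direction: Srxn1, Prdx1 and Sod1 rose and Txnrd1, Txndc5 and Nfe2l2 fell on differentiation of both lines. A match is a description of letters and not a site, and none in a window says nothing about the factor. The 250 bases before the start are shown for Gsta3 and Txnrd1, which had the core and were lower in LIGHT preadipocytes than in controls. They are also shown for Prdx1 and Srxn1, which hold both motifs in their windows (the core of Srxn1 lies after the start). Nqo1 is shown because its window holds neither. These are examples. Gclm and Srxn1 also had the core and were lower in LIGHT preadipocytes, and Gstm7 had it and was higher there. Gstm5 also holds both motifs. Capitals mark matches of either motif, read on the gene's strand.
Gsta3 (GRCm38.p6, chr1:21240335-21240584, plus strand): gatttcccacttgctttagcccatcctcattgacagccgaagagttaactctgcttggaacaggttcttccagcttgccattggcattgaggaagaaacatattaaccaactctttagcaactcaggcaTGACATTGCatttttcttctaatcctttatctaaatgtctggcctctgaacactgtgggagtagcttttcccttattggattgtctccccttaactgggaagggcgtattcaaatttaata
Txnrd1 (GRCm38.p6, chr10:82858956-82859205, plus strand): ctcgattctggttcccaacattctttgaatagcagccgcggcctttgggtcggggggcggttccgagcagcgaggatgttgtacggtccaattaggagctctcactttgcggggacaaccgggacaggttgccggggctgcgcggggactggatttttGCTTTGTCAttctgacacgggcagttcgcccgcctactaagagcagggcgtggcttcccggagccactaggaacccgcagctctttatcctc
Prdx1 (GRCm38.p6, chr4:116685349-116685598, plus strand): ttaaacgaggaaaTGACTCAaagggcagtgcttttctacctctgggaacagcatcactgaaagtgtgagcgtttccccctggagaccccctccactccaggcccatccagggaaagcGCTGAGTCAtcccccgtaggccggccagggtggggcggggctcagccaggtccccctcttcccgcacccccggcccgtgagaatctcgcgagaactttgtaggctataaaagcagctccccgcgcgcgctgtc
Srxn1 (GRCm38.p6, chr2:152105274-152105523, plus strand): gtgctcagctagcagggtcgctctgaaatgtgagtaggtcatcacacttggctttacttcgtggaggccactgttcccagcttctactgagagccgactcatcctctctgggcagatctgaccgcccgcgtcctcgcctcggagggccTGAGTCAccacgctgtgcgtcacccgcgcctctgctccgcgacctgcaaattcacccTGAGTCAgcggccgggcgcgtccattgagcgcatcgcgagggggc
Nqo1 (GRCm38.p6, chr8:107403206-107403455, minus strand): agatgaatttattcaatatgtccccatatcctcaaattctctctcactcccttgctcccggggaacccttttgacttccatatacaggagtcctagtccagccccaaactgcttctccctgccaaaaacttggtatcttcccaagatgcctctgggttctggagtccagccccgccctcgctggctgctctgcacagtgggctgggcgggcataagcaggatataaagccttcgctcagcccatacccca

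The next question was how LIGHT-overexpressing preadipocytes differ from control preadipocytes. Neither group holds either of the 2 doubtful libraries. In the fit of 12, however, these libraries enter the shared estimate of the spread, and so the p-values and calls here. LIGHT cells had more Txnip, Gstm1, Gstm2, Gstt1 and Prdx4 and less Gsto1, Gsto2, Gsta3, Gsta4, Gclc, Txnrd1 and Prdx6. Of 53 members 9 were higher and 14 lower, 43.4% in all, against 26.5% of all genes tested, 12.3% higher and 14.2% lower. The libraries of the lines did not overlap for 32 of 53 members (52.3% of all genes). Among the genes of the fit of 10 libraries this held for 33 of 55 members (52.1% of all genes). The members' median log2 fold change was -0.08, against -0.01 over all genes. In the fit without the 2 libraries, 13 were higher and 18 lower of 55 (44.4% of all genes, 22.3% higher and 22.1% lower). By family and with all 12 libraries, 3 Gst genes were higher and 6 lower of 15 and 3 Txn genes higher and 3 lower of 16. In that fit 2 Prdx genes were higher and 1 lower of 6, and of the single genes 0 were higher and 3 lower. The summed level of 7 preadipocyte or fibroblast markers was 8535 to 9292 CPM in LIGHT and 5304 to 6268 CPM in control libraries at this stage, and its part in these results was not tested. Col1a1 was the largest part of that sum, with means of 6477 CPM in LIGHT and 4021 CPM in control libraries. Pdgfra and Dlk1 were also higher in LIGHT libraries, and Thy1 was lower (means of 230 and 268 CPM). Pdgfrb, Ly6a and Cd34 overlapped between the lines. Leukocyte markers summed to 2.04 to 2.15 CPM in LIGHT and 3.93 to 4.603 CPM in control libraries. Of these, Cd68 and Lyz2 were lower in LIGHT libraries, and Ptprc was higher, at 4 to 11 counts against 0 to 2.

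In the thioredoxin system Txnip was higher and Txnrd1 lower in LIGHT preadipocytes, and the libraries of the lines did not overlap for either. Txnip differed between the undifferentiated lines by a log2 fold change of 0.86 ± 0.072 (SE) (edgeR adjusted p = 1.08e-05), and by 0.87 without the 2 libraries. Txnrd1 differed between the undifferentiated lines by a log2 fold change of -0.60 ± 0.060 (SE) (edgeR adjusted p = 3.64e-05), and by -0.59 without the 2 libraries. Txn1 did not pass (-0.02, edgeR adjusted p = 0.851), and mitochondrial Txn2 was lower by a log2 fold change of -0.37 (edgeR adjusted p = 0.00689). Among peroxiredoxins, Prdx4 was higher and Prdx6 lower. Prdx4 differed between the undifferentiated lines by a log2 fold change of 0.59 ± 0.083 (SE) (edgeR adjusted p = 3.37e-04), and by 0.60 without the 2 libraries. Prdx6 differed between the undifferentiated lines by a log2 fold change of -0.51 ± 0.077 (SE) (edgeR adjusted p = 5.67e-04), and by -0.50 without the 2 libraries. Prdx2, a cytosolic peroxiredoxin, was higher by 0.31 (edgeR adjusted p = 0.0122), a call that ended without undifferentiated control 2 or undifferentiated LIGHT 1 (edgeR adjusted p = 0.0516 in both cases). Sulfiredoxin was lower. Srxn1 differed between the undifferentiated lines by a log2 fold change of -0.30 ± 0.081 (SE) (edgeR adjusted p = 0.0163), and by -0.29 without the 2 libraries. Its call ended without undifferentiated control 2, undifferentiated LIGHT 1 or undifferentiated LIGHT 2 (edgeR adjusted p from 0.0557 to 0.0728).

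Neighbouring transferases parted. Before differentiation, Gstm1 measured 70.5, 71.2 and 71.2 CPM in the control libraries and 126, 126 and 107 CPM in the LIGHT libraries. After differentiation, Gstm1 measured 95.3, 64.6 and 69.9 CPM in the control and 65.9, 99.6 and 94.4 CPM in the LIGHT libraries. Gstm1 was higher in each LIGHT preadipocyte library than in any control. Gstm1 differed between the undifferentiated lines by a log2 fold change of 0.75 ± 0.16 (SE) (edgeR adjusted p = 0.00445), and by 0.76 without the 2 libraries. Gstm2 differed between the undifferentiated lines by a log2 fold change of 0.88 ± 0.13 (SE) (edgeR adjusted p = 5.09e-04), and by 0.89 without the 2 libraries. Before differentiation, Gstt1 measured 11.5, 12.1 and 13.8 CPM in the control libraries and 20.7, 22.4 and 17.5 CPM in the LIGHT libraries. After differentiation, Gstt1 measured 12.8, 13.1 and 13.7 CPM in the control and 11.03, 12.8 and 11.8 CPM in the LIGHT libraries. Gstt1, a theta-class enzyme, was higher in each undifferentiated LIGHT library than in any library of the other groups. Gstt1 differed between the undifferentiated lines by a log2 fold change of 0.70 ± 0.11 (SE) (edgeR adjusted p = 0.00102), and by 0.71 without the 2 libraries. By RefSeq order (GRCm38.p6), Gstm5, Gstm7, Gstm6, Gstm3, Gstm2, Gstm1 and Gstm4 lie side by side on chromosome 3, and Gstm5 differed by 0.15 (edgeR adjusted p = 0.348). Gstm7 and Gstm6, too low for the fit of 12, had 44 and 17 summed counts in LIGHT preadipocytes, against 9 and 7 in controls. Gstt3, Gstt1, Gstt4 and Gstt2 lie together on chromosome 10, and Gstt3 differed by -0.16 (edgeR adjusted p = 0.562).

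The tested alpha and omega members were lower in LIGHT preadipocytes. Before differentiation, Gsta4 measured 56.4, 55.8 and 55.8 CPM in the control libraries and 27.5, 25.9 and 27.9 CPM in the LIGHT libraries. After differentiation, Gsta4 measured 34.6, 50.5 and 58.5 CPM in the control and 56.2, 32.1 and 36.3 CPM in the LIGHT libraries. Gsta4, which conjugates the lipid peroxidation product 4-hydroxynonenal, was lower in each LIGHT preadipocyte library than in any control one. Gsta4 differed between the undifferentiated lines by a log2 fold change of -1.05 ± 0.20 (SE) (edgeR adjusted p = 0.00264), and by -1.04 without the 2 libraries. Gsto1 differed between the undifferentiated lines by a log2 fold change of -1.18 ± 0.10 (SE) (edgeR adjusted p = 1.57e-05), and by -1.16 without the 2 libraries. Gsto2 differed between the undifferentiated lines by a log2 fold change of -1.45 ± 0.26 (SE) (edgeR adjusted p = 0.00182), and by -1.44 without the 2 libraries. Gsta3 differed between the undifferentiated lines by a log2 fold change of -4.28 ± 0.57 (SE) (edgeR adjusted p = 2.54e-04), and by -4.27 without the 2 libraries. Gsta3 stood at a few counts in LIGHT preadipocytes, so its fold depends on the prior count of the fit. Gsta1 differed by -2.76 (edgeR adjusted p = 0.0423), from 19.5, 37.1 and 36.7 expected counts in control to 10, 4 and 0 in LIGHT libraries. The undifferentiated control libraries, in which Gsta1 was high, were enough to take it through the filter on low counts. The difference of Gsta1 is therefore no independent support. Its call ended without undifferentiated control 1, undifferentiated control 2, undifferentiated control 3, undifferentiated LIGHT 2, undifferentiated LIGHT 3 or differentiated control 2 (edgeR adjusted p from 0.0548 to 0.135). Gstcd differed between the undifferentiated lines by a log2 fold change of -0.47 ± 0.11 (SE) (edgeR adjusted p = 0.00922), and by -0.46 without the 2 libraries.

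Glutathione ligase subunits were lower too. Gclc differed between the undifferentiated lines by a log2 fold change of -0.70 ± 0.11 (SE) (edgeR adjusted p = 6.15e-04), and by -0.69 without the 2 libraries. Gclm differed between the undifferentiated lines by a log2 fold change of -0.33 ± 0.092 (SE) (edgeR adjusted p = 0.0190), and by -0.32 without the 2 libraries. The Gclm call ended without undifferentiated control 2, undifferentiated control 3 or undifferentiated LIGHT 1 (edgeR adjusted p from 0.0581 to 0.0790). Before differentiation, Gpx7 measured 25.4, 22.5 and 25.5 CPM in the control libraries and 36.7, 37.1 and 36.7 CPM in the LIGHT libraries. After differentiation, Gpx7 measured 33.4, 19.2 and 23.4 CPM in the control and 21.4, 29.7 and 27.8 CPM in the LIGHT libraries. Gpx7, a peroxidase of the endoplasmic reticulum, was higher in each LIGHT preadipocyte library. Gpx7 differed between the undifferentiated lines by a log2 fold change of 0.59 ± 0.17 (SE) (edgeR adjusted p = 0.0218), and by 0.60 without the 2 libraries. Its call ended when any 1 of the 6 undifferentiated libraries was left out of the fit of 12 (edgeR adjusted p from 0.0518 to 0.0835). Cat, Hmox1, Nfe2l2, Keap1, Gsr, Gpx4 and Gstp1 did not pass, with log2 fold changes from -0.11 for Hmox1 to -0.01 for Nfe2l2. Sod1, Sod2 and Sod3 did not pass with all libraries either (0.22, -0.19 and 0.22), and did pass without the 2 libraries (0.23, -0.17 and 0.23; edgeR adjusted p = 0.00704, 0.00870 and 0.00262).

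The last questions were how the lines differ after differentiation and whether the change with stage differs between lines. With the 12 libraries as labelled, 0 of 53 members differed between the differentiated lines in edgeR, where 0% of all genes were called. Their libraries did not overlap for 2 members (6.77% of all genes), and 2 members (Gclc and Gstcd) had an unadjusted p under 0.05. DESeq2 likewise called 0 members, and 1 gene of all tested. Without the 2 libraries, which leaves 2 libraries a group, LIGHT cells had more Nqo1, Sod3, Gstm1, Gstm2, Gpx7 and Txndc16 and less Gsta4, Gstt3, Hmox1, Gclc, Gstz1, Gpx4, Prdx3 and Prdx5. Then 10 members were higher and 14 lower of 55, 43.6% in all, against 31% of all genes tested, 14.6% higher and 16.4% lower. The lines did not overlap for 41 of the 55 members, as for 66.7% of all genes. With library totals the same libraries gave 15 higher and 11 lower, 57.7% of calls being higher instead of 41.7%, and the median of all genes was 0.07 instead of -0.01. Of all genes' calls 66.0% were then higher, instead of 47.1%. The adipocyte marker sum was 15614 and 15976 CPM in LIGHT 2 and 3 and 20171 and 21320 CPM in control 2 and 3, and its part in these results was not tested. Fabp4 was its largest part, at 6991 to 11805 CPM in all differentiated control and 7096 to 11641 CPM in all differentiated LIGHT libraries. In the same groups Cebpa ran from 186 to 206 and from 203 to 217 CPM. Cidec ran from 3576 to 3875 and from 3698 to 3913 CPM. These ranges include differentiated control 1 and differentiated LIGHT 1, which the sums above leave out. Whether the sum describes each marker without these 2 libraries is therefore not shown here. The fibroblast marker sum, of which Col1a1 was the largest part, was 6933 and 6857 CPM against 5326 and 5599 CPM.

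Nqo1, the quinone reductase often read as a gauge of NRF2, showed the largest difference towards LIGHT among called members. Before differentiation, Nqo1 measured 74.3, 74.7 and 80.8 CPM in the control libraries and 62.4, 63.7 and 59.4 CPM in the LIGHT libraries. After differentiation, Nqo1 measured 80.0, 41.5 and 42.7 CPM in the control and 43.0, 67.8 and 79.1 CPM in the LIGHT libraries. Control 2 and 3 lay near 42 CPM and LIGHT 2 and 3 between 67.8 and 79.1 CPM, with control 1 and LIGHT 1 each beside the other line. Nqo1 differed between the differentiated lines by a log2 fold change of 0.79 ± 0.080 (SE) without the 2 libraries (edgeR adjusted p = 4.65e-07). Its change on differentiation was -0.84 ± 0.074 (SE) in control and 0.25 ± 0.071 (SE) in LIGHT cells (edgeR adjusted p = 4.74e-09 and 0.00413), and with all libraries -0.49 and 0.03 (edgeR adjusted p = 0.0925 and 0.910). The rise in LIGHT cells ended without differentiated LIGHT 3 (edgeR adjusted p = 0.168) in the fit of 10 libraries. Before differentiation Nqo1 was lower in LIGHT cells, at a log2 fold change of -0.30 (edgeR adjusted p = 8.24e-04), which did not pass with all libraries (edgeR adjusted p = 0.368).

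Before differentiation, Sod3 measured 216, 199 and 235 CPM in the control libraries and 242, 248 and 266 CPM in the LIGHT libraries. After differentiation, Sod3 measured 321, 194 and 185 CPM in the control and 191, 300.2 and 298 CPM in the LIGHT libraries. Sod3 followed the same order, with control 1 and LIGHT 1 again beside the other line. Sod3 differed between the differentiated lines by a log2 fold change of 0.66 ± 0.069 (SE) without the 2 libraries (edgeR adjusted p = 7.65e-07). Gstm1 differed between the differentiated lines by a log2 fold change of 0.52 ± 0.077 (SE) without the 2 libraries (edgeR adjusted p = 3.95e-05). Gstm2 differed between the differentiated lines by a log2 fold change of 0.41 ± 0.063 (SE) without the 2 libraries (edgeR adjusted p = 5.88e-05). Before differentiation, Txndc16 measured 19.6, 16.8 and 17.8 CPM in the control libraries and 19.5, 19.8 and 19.1 CPM in the LIGHT libraries. After differentiation, Txndc16 measured 26.4, 17.6 and 16.6 CPM in the control and 18.8, 24.9 and 23.9 CPM in the LIGHT libraries. Txndc16 had more in LIGHT 2 and 3 than in control 2 and 3. Txndc16 differed between the differentiated lines by a log2 fold change of 0.51 ± 0.11 (SE) without the 2 libraries (edgeR adjusted p = 0.00137). Gpx7 differed between the differentiated lines by a log2 fold change of 0.42 ± 0.10 (SE) without the 2 libraries (edgeR adjusted p = 0.00328). The Gpx7 call ended without differentiated control 2 (edgeR adjusted p = 0.0841). Gpx7, Gstm1, Gstm2, Prdx2 and Sod3 were thus higher in LIGHT cells at both stages in this fit, as were 6.32% of all genes. The Prdx2 difference after differentiation was 0.20 (edgeR adjusted p = 0.0214) and ended without differentiated control 2, differentiated control 3 or differentiated LIGHT 2 (edgeR adjusted p from 0.0670 to 0.184).

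Hmox1 differed between the differentiated lines by a log2 fold change of -0.53 ± 0.060 (SE) without the 2 libraries (edgeR adjusted p = 1.77e-06). Gstz1 differed between the differentiated lines by a log2 fold change of -0.45 ± 0.075 (SE) without the 2 libraries (edgeR adjusted p = 1.35e-04). Gpx4 differed between the differentiated lines by a log2 fold change of -0.39 ± 0.064 (SE) without the 2 libraries (edgeR adjusted p = 1.28e-04). Differentiated LIGHT 2 and 3 lay below control 2 and 3 for each of these and above the undifferentiated libraries, so the genes rose in both lines and reached a lower level in LIGHT cells. Before differentiation, Gstt3 measured 20.5, 20.1 and 24.5 CPM in the control libraries and 21.0, 20.3 and 16.9 CPM in the LIGHT libraries. After differentiation, Gstt3 measured 28.0, 39.2 and 35.8 CPM in the control and 39.9, 24.01 and 26.9 CPM in the LIGHT libraries. Gstt3 was also lower in differentiated LIGHT 2 and 3 than in control 2 and 3. Its level in differentiated LIGHT 2 (24.01 CPM) lay below that of undifferentiated control 3 (24.5 CPM). Gstt3 differed between the differentiated lines by a log2 fold change of -0.57 ± 0.11 (SE) without the 2 libraries (edgeR adjusted p = 8.64e-04). Prdx3 differed between the differentiated lines by a log2 fold change of -0.34 ± 0.057 (SE) without the 2 libraries (edgeR adjusted p = 1.35e-04). Prdx5 differed between the differentiated lines by a log2 fold change of -0.31 ± 0.068 (SE) without the 2 libraries (edgeR adjusted p = 0.00188). Gsta4 differed between the differentiated lines by a log2 fold change of -0.68 ± 0.086 (SE) without the 2 libraries (edgeR adjusted p = 6.77e-06). Gclc differed between the differentiated lines by a log2 fold change of -0.46 ± 0.099 (SE) without the 2 libraries (edgeR adjusted p = 0.00162). Before differentiation, Txndc9 measured 66.5, 71.3 and 70.8 CPM in the control libraries and 60.4, 61.5 and 52.9 CPM in the LIGHT libraries. After differentiation, Txndc9 measured 55.1, 70.3 and 74.2 CPM in the control and 67.5, 56.0 and 54.8 CPM in the LIGHT libraries. Txndc9 was lower in LIGHT 2 and 3 than in control 2 and 3. Txndc9 differed between the differentiated lines by a log2 fold change of -0.39 ± 0.077 (SE) without the 2 libraries (edgeR adjusted p = 7.49e-04). Gclc, Gsta4, Gsto1, Sod2 and Txndc9 were lower in LIGHT cells at both stages in this fit, as were 5.29% of all genes, Gsto1 by -1.16 before and -0.34 after, and Sod2 by -0.17 and -0.24.

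**Figure D3:**
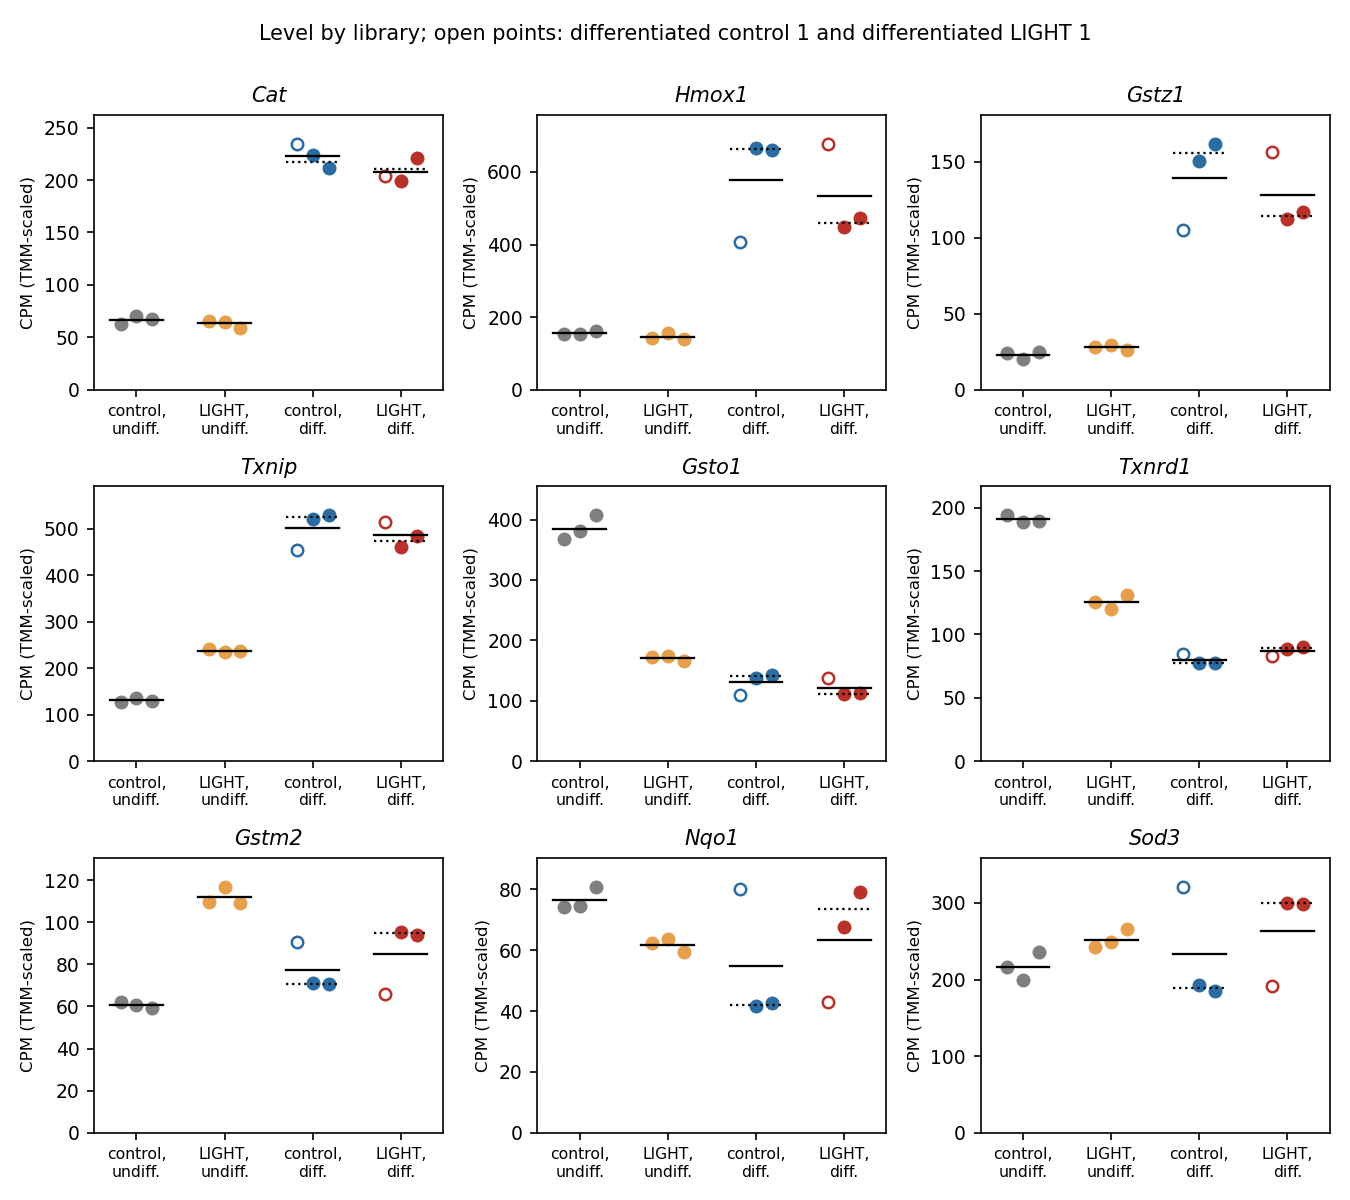
TMM-scaled CPM of 9 members in each library; solid lines are means of 3, dotted lines means without the open points, which are differentiated control 1 and differentiated LIGHT 1. For Hmox1, Gstz1, Gstm2, Nqo1 and Sod3 the open points lie beside the other line, for example Nqo1 at 80.0 CPM in control 1 and 43.0 CPM in LIGHT 1.

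The interaction, which asks whether the step with stage differs between lines, was called for 8 of 53 members with all libraries (15.1%, against 9.34% of all genes, 5.08% positive and 4.26% negative). It was positive for Gsta3, Gsto1, Txnrd1 and Prdx6 and negative for Txnip, Gstt1, Gstm2 and Prdx4. For Gsto1 the interaction was 1.06 ± 0.15 (SE), for Txnrd1 0.73 ± 0.086 (SE), for Txnip -0.90 ± 0.10 (SE) and for Gstt1 -0.85 ± 0.16 (SE) on the log2 scale (edgeR adjusted p = 0.00122, 4.56e-04, 3.28e-04 and 0.00724). In these 4 genes the lines differed before differentiation and did not pass after it with all libraries. The calls of 2 genes ended when single libraries were left out. That of Gstm2 (-0.74) ended without undifferentiated control 1, undifferentiated control 2, undifferentiated control 3, undifferentiated LIGHT 1 or undifferentiated LIGHT 2 (edgeR adjusted p from 0.0534 to 0.0710), and also with library totals (-0.70, edgeR adjusted p = 0.0541). That of Prdx6 (0.43) ended without undifferentiated control 2, undifferentiated control 3, undifferentiated LIGHT 1, undifferentiated LIGHT 2, undifferentiated LIGHT 3 or differentiated control 3 (edgeR adjusted p from 0.0501 to 0.0715). With library totals 7 interactions were positive and 3 negative, 70% of calls instead of 50%. Over all genes that scaling moved the median interaction from 0.00 to 0.04 and the positive share of calls from 54.4% to 62.4%.

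Without the 2 libraries 14 interactions were positive and 11 negative of 55 (45.5%, against 31% of all genes, 14.9% positive and 16.1% negative). Nqo1 led those gained, with 1.09 ± 0.10 (SE) (edgeR adjusted p = 2.05e-07). Gpx1, Gstz1, Nqo1, Txnip and Txnrd1 then had opposite calls of LIGHT before and after differentiation, as did 5.74% of all genes. Txnip went from 0.87 before to -0.16 after (edgeR adjusted p = 0.0341), and the second call ended without differentiated control 2, differentiated control 3, differentiated LIGHT 2 or differentiated LIGHT 3 (edgeR adjusted p from 0.0596 to 0.253) and with library totals (edgeR adjusted p = 0.28). Txnrd1 went from -0.59 to 0.20 (edgeR adjusted p = 0.0159), the second call ending without differentiated control 2, differentiated control 3, differentiated LIGHT 2 or differentiated LIGHT 3 (edgeR adjusted p from 0.0628 to 0.0959). Gstz1 went from 0.29 to -0.45, and Gpx1 from -0.15 to 0.27. The first Gpx1 call ended without undifferentiated control 3 or undifferentiated LIGHT 3 (edgeR adjusted p from 0.0731 to 0.101) and the second without differentiated control 3 (edgeR adjusted p = 0.0726). Cat had an interaction of 0.02 ± 0.090 (SE), Gsr of 0.12 ± 0.12 and Nfe2l2 of -0.04 ± 0.084, none of which passed.

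**Figure D4:**
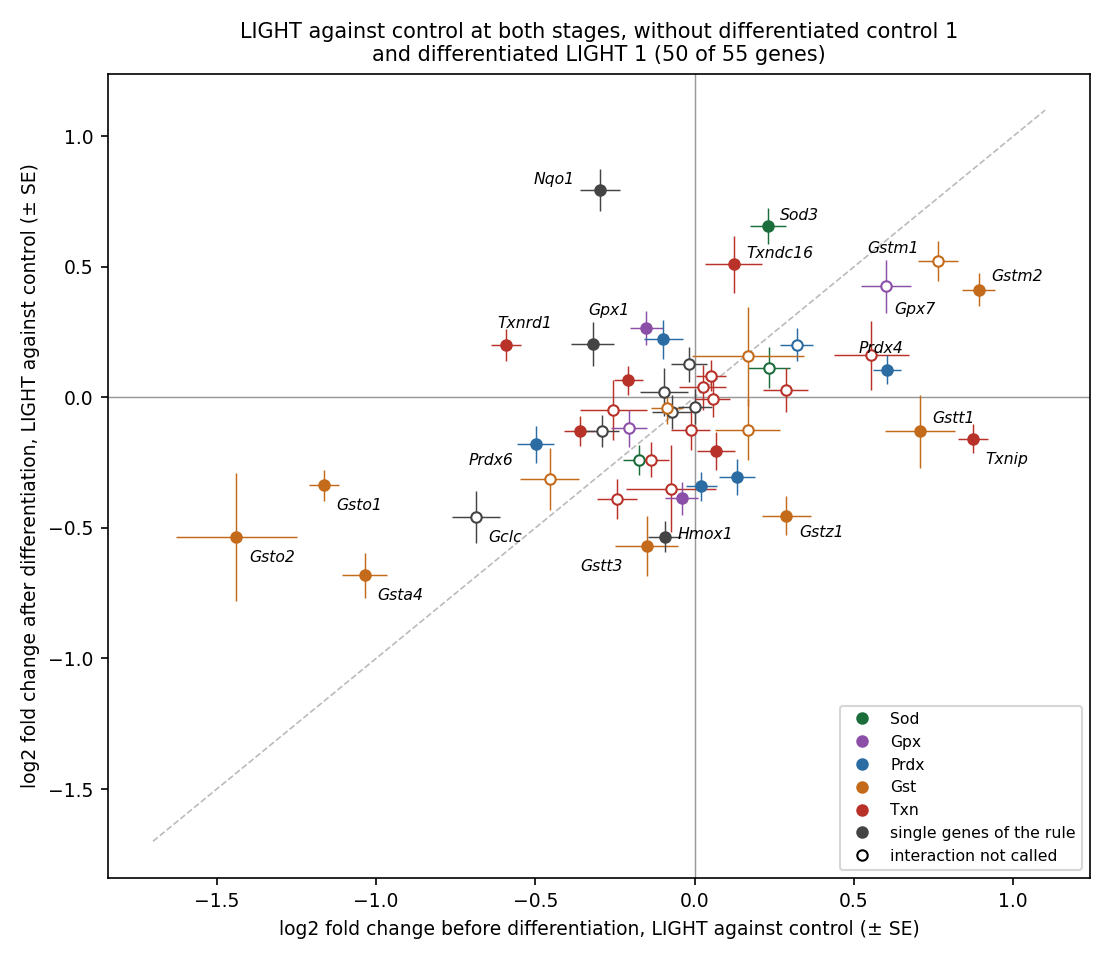
Log2 fold change of LIGHT against control before (x) and after (y) differentiation in the fit without differentiated control 1 and differentiated LIGHT 1, with bars of ± SE; colours mark families, filled points a called interaction, and the dashed line equal values at both stages. Gsta1, Gsta3, Gstm7, Gstp2 and Gstt2, with few counts, are left out, and Nqo1 lies at -0.30 and 0.79.

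Low counts kept 10 members out of the test: Gpx3, Gpx6, Gsta2, Gstm3, Gstm4, Gstm6, Gstm7, Gstt2, Gstt4 and Txndc2. Gpx3, the secreted peroxidase that is abundant in fat tissue, had at most 1 count in a library. Gstt4 had 2 counts summed over the undifferentiated and 33 over the differentiated control libraries, a ratio of 15.6 with an exact 95% counting interval of 3.99 to 134. In LIGHT cells Gstt4 had 0 and 26 counts, at least 8.75-fold higher after differentiation when the 0 is set at the group's floor of 3 counts. Gstm7 had 9 counts in control and 44 in LIGHT preadipocytes, a ratio of 4.64 (2.24 to 10.8). In the fit of 10 libraries Gstm7 and Gstt2 also entered the test, Gstm7 through the LIGHT preadipocytes in which it is high, so its call there (2.19) was bound to show a difference. These intervals cover counting error only.

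Other genes of the same chemistry were counted in 5 lists. The counts on differentiation stand beside those of all genes tested, of which 32.2% rose and 31.7% fell in control and 29.5% and 29.1% in LIGHT cells. Of 30 tested genes that supply, turn over or use glutathione, 15 rose and 6 fell on differentiation of control cells. In LIGHT cells 17 rose and 8 fell. The microsomal transferase Mgst1 rose by a log2 fold change of 3.08 and 2.63, and glutaredoxin (Glrx) by 1.53 and 1.66. Among 20 genes of NADPH supply, 11 rose and 5 fell in control and 12 and 5 in LIGHT cells, led by Idh1 (1.86 and 1.27), Me1 (1.14 and 1.31) and Taldo1 (1.76 and 1.84). Of 20 other genes linked to NRF2, 10 rose and 6 fell in control and 6 and 6 in LIGHT cells, with the carbonyl reductases Cbr3 (3.13 and 3.65) and Cbr1 (2.31 and 2.40) leading those that rose and the prostaglandin reductase Ptgr1 falling (-0.98 and -0.86). Of 22 genes of sulfur repair and selenoproteins, 12 rose and 8 fell in control and 8 and 8 in LIGHT cells, the selenium carrier Sepp1 rising by 2.43 and 2.19. Of 14 enzymes that make superoxide or hydrogen peroxide, 7 rose and 5 fell in control and 9 and 3 in LIGHT cells. The median log2 fold change of this last list was 0.71 in control and 0.69 in LIGHT cells. Against that direction, the superoxide- and peroxide-making oxidase Nox4 changed by -2.16 in LIGHT cells. Its change in control cells is not given here.

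Between undifferentiated lines, 12.3% of all genes were higher and 14.2% lower in LIGHT cells. The lists had 3 higher and 6 lower of 30 for glutathione supply, turnover and use and 2 and 3 of 20 for NADPH. They had 4 and 5 of 20 for other NRF2-linked genes, 6 and 3 of 22 for sulfur repair and 1 and 2 of 14 for oxidant-making enzymes. Dpep1, a dipeptidase of glutathione breakdown, was lower in LIGHT cells (-1.13), and selenoprotein W (Sepw1) higher (0.79). Between differentiated lines 0 genes of the lists passed with all libraries. In the fit of 10 libraries 14.6% of all genes were higher and 16.4% lower. There 2 were higher and 11 lower of 30 for glutathione supply, turnover and use, and 3 and 10 of 20 for NADPH supply. The medians were -0.18 in both against -0.01 over all genes. The glutathione-degrading Chac1 (-0.96), the microsomal transferase Mgst3 (-0.67) and mitochondrial Aldh1l2 (-0.96) were among those lower in LIGHT cells. Of the other NRF2-linked genes 3 were higher and 5 lower, and ferritin heavy chain (Fth1) was higher (0.38). Sulfur repair had 3 and 3 of 22, and oxidant-making enzymes 1 and 4 of 14, with Ero1l, an oxidase of the endoplasmic reticulum, at -1.49.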

How the data were processed

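The authors deposited 1 table a library with expected counts per gene (not always whole) and FPKM, per the file headers. Per the submitters' processing notes reads were placed on mm8. Which aligner and counting tool were used, and with what strand setting, was not given in the sources used here. Expected counts were rounded, and 12993 genes passed edgeR's filterByExpr (minimum count 10 over the 4 groups). edgeR 4.0.16 (R 4.3.3) fitted its quasi-likelihood test to all 12 libraries in 1 model with TMM scaling, and p-values were adjusted by Benjamini-Hochberg over all genes tested, with a threshold of 0.05. CPM are TMM-scaled. The fit was repeated without differentiated control 1 and differentiated LIGHT 1 (13150 genes), and both fits are given because Tnfsf14 in these libraries goes against their labels. Library totals were 16334079 to 19686675 counts. The test was first tested on simulated data.

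Members and gene lists were chosen with earlier results of these data known. Values are given by library for the 9 single genes, for the member of each of the 5 families with the highest mean FPKM, and for up to 6 called members with the largest rise and 6 with the largest fall of each contrast and fit, where the higher group's mean reached 5 CPM. From each of the 5 lists up to 4 genes with the smallest p of a contrast may be named. Members that passed no filter on low counts have counts only. Alternatives tried were library totals, RLE scaling, DESeq2 1.42.0, dropping the filter, a minimum count of 30, only the groups compared, the replicate number as a block, and leaving out each library. Promoter stretches are from RefSeq (GRCm38.p6) and were joined by symbol or gene ID; no coordinate of the build mm8 was used. Whether replicate numbers pair the libraries was not tested, and the main fit did not pair them.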

Additional observations from a re-analysis of the deposited data

Results flagged for a closer look

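The change with stage differed between the lines by a test of the interaction, on the log2 scale and with LIGHT cells minus control cells. With all 12 libraries the values were 4.50 for Gsta3, which stood at a few counts in LIGHT preadipocytes, 1.06 for Gsto1, 0.73 for Txnrd1 and 0.43 for Prdx6. They were -0.90 for Txnip, -0.85 for Gstt1, -0.74 for Gstm2 and -0.64 for Prdx4.

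A further 17 members passed in the fit without differentiated control 1 and differentiated LIGHT 1 and not with all libraries. Positive values were 1.09 for Nqo1, 0.90 for Gsto2, 0.52 for Gclm, 0.43 for Sod3, 0.42 for Gpx1, 0.39 for Txndc16, 0.35 for Gsta4, 0.32 for Prdx1, 0.27 for Txnl4a and 0.23 for Txn2. Negative values were -0.74 for Gstz1, -0.44 for Hmox1, -0.44 for Prdx5, -0.42 for Gstt3, -0.36 for Prdx3, -0.35 for Gpx4 and -0.27 for Txndc17. Leaving out 1 further library ended the call of Gsta4, Gsto2, Gstt3, Prdx1, Prdx6, Txn2, Txndc16 or Txndc17 in that fit, and library totals ended those of Gstt3 and Txndc17.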

How the results depend on the processing

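Counts of called members kept within 1.5 times of those reported under RLE scaling, no low-count filter, a minimum count of 30 and only the groups compared, for each contrast these were run on. Without differentiated control 1 and differentiated LIGHT 1, the counts between differentiated lines went from 0 to 10 higher and 14 lower, and the interactions from 4 to 14 positive and from 4 to 11 negative; the Sod3 interaction went from -0.04 to 0.43. Positive interactions numbered 7 with library totals and 9 in DESeq2. Leaving out 1 of the 12 libraries gave 22 to 24 higher and 15 to 17 lower on differentiation of control cells and 22 to 24 and 13 to 18 of LIGHT cells. It gave 6 to 11 higher and 11 to 15 lower between undifferentiated lines (6 higher without undifferentiated LIGHT 1 or undifferentiated control 2), 0 and 0 between differentiated lines, and 3 to 8 positive and 3 to 5 negative interactions, with 8 positive without differentiated control 1 alone. In the fit of 10 libraries, leaving out 1 more gave 6 to 10 higher and 11 to 16 lower between differentiated lines, 6 without control 2 or 3; the lone library of a group is then assumed to vary like the others. With the replicate number as a block (replicate block), 21 rose and 15 fell in control cells, 22 and 17 in LIGHT cells, 9 were higher and 13 lower between undifferentiated lines, 0 and 0 between differentiated lines, and 3 interactions were positive and 3 negative. Within a line, same-numbered libraries of the 2 stages correlated at 0.0359 to 0.0973 in their deviations from group means. Differently numbered ones correlated at -0.0894 to 0.00586. Between lines, same-numbered libraries correlated at -0.618 to 0.0445, the lowest value being that of differentiated control 1 and differentiated LIGHT 1. Whether the numbers pair the libraries was not tested. Fits of 10 libraries with library totals, with the block or without 1 more library were chosen after seeing the data. The causes of these changes were not tested. At these depths members under 3 counts a library cannot be compared.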
